A study of Rattus norvegicus with 24 samples.

Results

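Low dietary copper was set against adequate dietary copper in livers whose arrays had been hybridised on the same slide. The rats were male Wistar rats aged 6 months at the start and 9 months at sampling, fed a purified diet for 12 weeks. The groups were 6 rats on low copper with 30% sucrose (A1 to A6) against 2 rats on adequate copper with 30% sucrose (B1 and B2) on one slide, and 2 rats on low copper with 10% sucrose (C5 and C6) against 6 rats on adequate copper with 10% sucrose (D1 to D6) on another. Low copper was under 0.3 mg/kg and adequate copper was 125 mg/kg. The source names of the samples call the 125 mg/kg level high copper, so adequate here means that level. These 16 arrays, 8 on low and 8 on adequate copper, were chosen because both copper levels at 1 sucrose level lay on their slide; the other 8 of the 24 arrays lay on a slide where copper and sucrose changed together. The diet with adequate copper and 10% sucrose was the study's control diet. Each array was 1 rat. Sucrose and slide cannot be told apart between these strata, so the 2 strata are called the 30% and the 10% slide below. Each stratum rests on 2 rats in its smaller group.

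Copper is a cofactor of cytochrome oxidase, of the superoxide dismutases Sod1 and Sod3, and of the plasma ferroxidase ceruloplasmin (Cp). Hepatocytes take it up through Slc31a1, pass it on through chaperones such as Atox1 and Ccs, and load it into secreted enzymes or bile through Atp7b. Metallothioneins are small proteins rich in cysteine; they bind zinc and copper, and their genes are induced when free zinc activates the factor Mtf1 at short metal response elements upstream of the start site.

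All values are log2 levels relative to the 75th percentile of the array, and a difference is low minus adequate copper. That percentile ranged from 433 to 1284 intensity units over the 16 arrays, and 59.9 to 73.4% of the probes were well above background. The 22 hepatocyte markers measured were all well above background on all 16 arrays, and the summed linear level of the list (75th percentile of the array = 1) was 2700 to 4250 in low and 4000 to 5440 in adequate copper rats on the 30% slide, and 4010 to 4200 in low and 3240 to 4840 in adequate copper rats on the 10% slide. Within each slide the arrays of the smaller group lay at 1 end, and no position on a slide held both copper levels. Copper and position therefore cannot be told apart within a slide. A fit with position as a block was run only as an alternative, and it compares the copper levels across the slides. In whole liver, fewer cells of a type and less RNA per cell cannot be told apart.

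The metallothionein probes carry the clearest shared difference, and the sequences of the 3 probes that hold a cysteine-rich reading frame without a stop codon are shown for that reason. FQ220235 and ENSRNOT00000058957 are array names with no gene symbol in the tables used here. The FQ220235 probe lies at chr19:11262012-11262071 (rn4, minus strand), 381 bases from the Mt1a probe on the same strand. The ENSRNOT00000058957 probe lies at chrX:55288646-55288705 (rn4, minus strand), and the second Mt2A probe at chr19:11268168-11268227 (rn4, minus strand). The capitals mark the in-frame triplets TGC and TGT, which encode cysteine, 5 of 20 triplets in the first, 6 of 20 in the second and 7 of 20 in the third.
FQ220235: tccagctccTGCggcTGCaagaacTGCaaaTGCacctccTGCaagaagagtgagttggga
ENSRNOT00000058957: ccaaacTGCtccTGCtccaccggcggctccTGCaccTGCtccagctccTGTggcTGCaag
Mt2A, second probe: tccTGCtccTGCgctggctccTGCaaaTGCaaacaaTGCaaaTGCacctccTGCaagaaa
FQ220235 and the second Mt2A probe share an unbroken run of 23 bases, FQ220235 and ENSRNOT00000058957 share 11, and ENSRNOT00000058957 and the second Mt2A probe share 10. The Mt1a probe shares no more than 5 bases in a run with any of these 3, and the first Mt2A probe no more than 6. RNA of one metallothionein gene may therefore reach several of these probes, and they are not independent readouts.

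Mt1, Mt2A, Mt3 and Mt4 lie on chromosome 19 and Mt1f on chromosome X, and the 250 bases upstream of the start of Mt1 and of Mt2A are given because both genes were lower together here. The sequences are those of RefSeq on GRCr8, chr19:10832976-10833225 for Mt1 and chr19:10838709-10838958 for Mt2A, both on the minus strand and written 5′ to 3′. Capitals mark the core letters of the metal response element, TGCACNC or TGCGCNC, searched on both strands.
Mt1 upstream: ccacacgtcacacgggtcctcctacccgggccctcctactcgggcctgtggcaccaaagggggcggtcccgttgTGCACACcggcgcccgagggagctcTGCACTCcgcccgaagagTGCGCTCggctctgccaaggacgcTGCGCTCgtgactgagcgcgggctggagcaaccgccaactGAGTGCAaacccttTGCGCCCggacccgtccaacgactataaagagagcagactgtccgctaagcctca
Mt2A upstream: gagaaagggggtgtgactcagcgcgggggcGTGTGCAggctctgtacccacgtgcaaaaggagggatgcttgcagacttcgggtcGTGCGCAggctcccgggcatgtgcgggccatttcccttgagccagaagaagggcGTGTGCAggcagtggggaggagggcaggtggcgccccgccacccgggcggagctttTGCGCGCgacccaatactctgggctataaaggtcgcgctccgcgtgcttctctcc
Mt1 held 6 matches and Mt2A 4. Of 33469 upstream windows of that length, 20.6% held at least 1 match, 0.266% at least 4 and 0.0269% at least 6. Upstream of Mt3 there were 3 matches and upstream of Mt4 there was 1, and upstream of Mt1f there were 0. A match describes these letters only.

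Metallothionein levels were lower in low copper rats than in adequate copper rats on both slides, in every rat. Mt1a (now Mt1; probe at chr19:11261631-11261690, rn4) stood at 4.91, 4.47, 4.63, 3.80, 5.01 and 4.53 in rats A1 to A6, against 5.57 and 5.42 in the adequate copper rats B1 and B2. With 10% sucrose it stood at 4.64 and 4.55 in the low copper rats C5 and C6, against 6.71, 6.53, 5.90, 5.66, 6.43 and 7.01 in rats D1 to D6. On neither slide did the groups overlap. The low copper rats stood at 4.56 ± 0.43 (SD, n = 6) against 5.50 ± 0.11 (SD, n = 2) in adequate copper rats on the 30% slide, and at 4.59 ± 0.07 (SD, n = 2) against 6.37 ± 0.51 (SD, n = 6) on the 10% slide. The low copper level was 1.92-fold lower on the 30% slide and 3.44-fold lower on the 10% slide. The mean of the 2 differences was -1.36 ± 0.23 (SE).

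Mt2A (first probe at chr19:11267834-11267893, rn4) gave the same picture at a lower level. It stood at 2.55, 2.63, 2.47, 2.27, 2.44 and 2.31 in rats A1 to A6, against 2.88 and 3.08 in B1 and B2. With 10% sucrose it stood at 2.45 and 2.12 in C5 and C6, against 4.59, 4.04, 3.51, 3.37, 4.04 and 4.66 in D1 to D6. Again no low copper rat reached an adequate copper rat on its slide, and the spread was widest among the adequate copper rats on 10% sucrose. The fold was 1.45 lower on the 30% slide and 3.37 lower on the 10% slide, with a mean difference of -1.14 ± 0.20 (SE). The second Mt2A probe gave -1.20 ± 0.25 (SE), FQ220235 -1.42 ± 0.27 (SE) and ENSRNOT00000058957 -1.29 ± 0.28 (SE). By p-value these 5 probes held ranks 2, 3, 4, 7 and 8 among 21179 probes. Mt4, a metallothionein known from squamous epithelia in mice, did not share the direction: its difference was -0.54 on the 30% slide and 0.27 on the 10% slide, and Mt3 was not kept by the filter on dim probes.

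The exact permutation test over all 784 regroupings of rats within the slides gave p = 0.00128, the smallest it can give, for Mt1a, Mt2A, FQ220235 and ENSRNOT00000058957 (two-sided). This smallest p was reached by 10 of 18641 genes, which is 0.0536%. Random grouping would give it to a share of 0.00128 of genes, which is more. Only genes already separated on both slides can reach it. FQ220235 and ENSRNOT00000058957 were named from these same values, so for them the test adds nothing. Mt1a and Mt2A were fixed genes, chosen with earlier results of these data known. After Benjamini-Hochberg adjustment over all genes limma gave adjusted p = 0.221 for Mt1a and for Mt2A, 0.413 for FQ220235 and 0.9998 for ENSRNOT00000058957, so none of them passed 0.05. Without a filter on dim probes, which adds dim genes and changes the shared estimate of the spread, the adjusted p was 0.0268 for Mt1a and 0.0306 for Mt2A. The difference was larger on the 10% slide for Mt2A by 1.21 ± 0.40 (SE) and for Mt1a by 0.84 ± 0.46 (SE), and neither passed adjustment (adjusted p = 0.317 and 0.462, limma). Rat A4, whose array had the brightest 75th percentile, had the lowest Mt1a of the low copper rats on 30% sucrose. Leaving out each rat in turn kept the mean Mt1a difference between -1.43 and -1.28. With position on the slide as a block the difference was -1.15 for Mt1a and -0.98 for Mt2A. That fit compared the copper levels across the slides and took position to act alike on both, so it does not part copper from position within a slide.

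**Figure D1:**
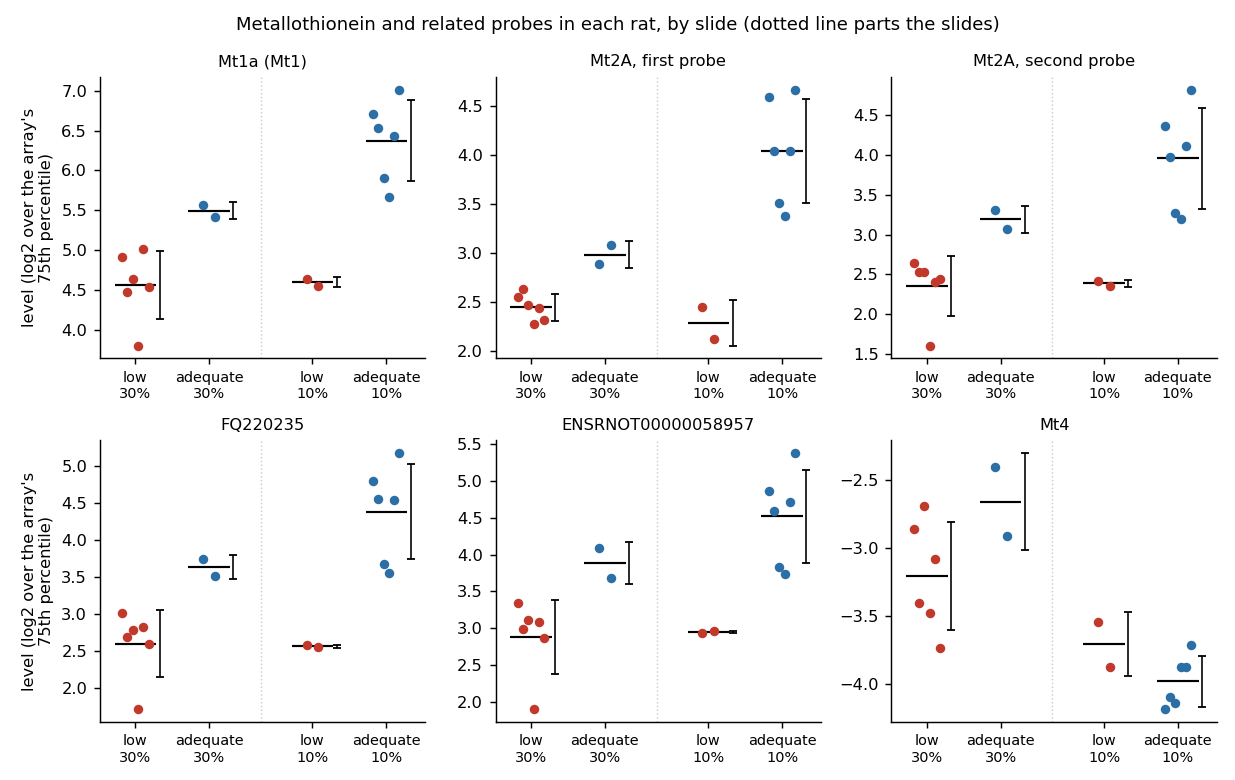
Level of each metallothionein or related probe in each rat (y axis, log2 over the array's 75th percentile), with low copper (red) left of adequate copper (blue) on each slide, the mean as a bar and the SD as a whisker. In 5 of the panels no low copper rat reaches an adequate copper rat of its slide, while Mt4 overlaps on both slides in opposite directions.

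Over the whole transcriptome the shared copper difference was small. Of 18641 genes, 0 passed an adjusted p of 0.05 in the mean of both slides (limma), which is 0%, and 491 (2.63%) had an unadjusted p below 0.05, 162 of them higher (0.869%) and 329 lower (1.76%) in low copper rats. The split by direction depended on the scaling: 400 were higher and 306 lower with quantile normalization, 353 and 295 in the authors' table, 253 and 324 after smoothing over probe GC, and 23 and 117 with normexp background correction. On the 30% slide 6 genes passed (0.0322%), and 1345 (7.22%) had an unadjusted p below 0.05, 160 higher (0.858%) and 1185 lower (6.36%; 652 and 727 with quantile normalization, 528 and 763 in the authors' table, 314 and 646 after smoothing over GC). On the 10% slide 0 passed (0%) and 1195 (6.41%) had an unadjusted p below 0.05, 916 higher (4.91%) and 279 lower (1.5%; 675 and 435 with quantile normalization, 662 and 361 in the authors' table, 745 and 520 after smoothing over GC). In simulated data with 200 changed genes the mean of both slides recovered 64.2% of changes of 1 log2 unit and 19.4% of changes of 0.5. There each change was equal on both slides and the noise was independent between genes. The real arrays also differed by probe base composition and by single rats, as given below, so these shares may not hold for them.

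Complete separation on both slides in the same direction, that is, every low copper rat below or every one above the adequate copper rats of its slide, was met by 13 genes below (0.0697%) and 4 above (0.0215%). Together these 17 are 0.0912% of all genes, and the 4 metallothionein-related genes are among the 13. Within single slides, all low copper rats stood above in 2.24% and below in 7.54% of genes on the 30% slide, and above in 7.53% and below in 1.79% on the 10% slide. Gsta4, a glutathione transferase that clears the lipid peroxidation product 4-hydroxynonenal, had a narrow difference, 4.73 to 5.04 in low copper rats against 5.14 and 5.21 in adequate copper rats on the 30% slide, and 4.90 and 4.67 in low against 4.93 to 5.27 in adequate copper rats on the 10% slide. Its mean difference was -0.24 ± 0.09 (SE). Traf6, a ubiquitin ligase of the interleukin 1 and Toll-like receptor pathways, was the only well detected gene of the 4 above, at -2.23 to -1.89 in low copper rats against -2.34 and -2.32 in adequate copper rats on the 30% slide. Traf6 on the 10% slide stood at -2.13 and -2 in low copper rats against -2.81 to -2.19 in adequate copper rats. Both genes thus had groups that only just failed to overlap on the 10% slide. Of the 17 separated genes 8 were well above background on all 16 arrays. Leaving out 1 of the 2 rats of a small group makes separation easier: the count was 96 without B1, 66 without B2, 327 without C5 and 51 without C6.

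**Figure D2:**
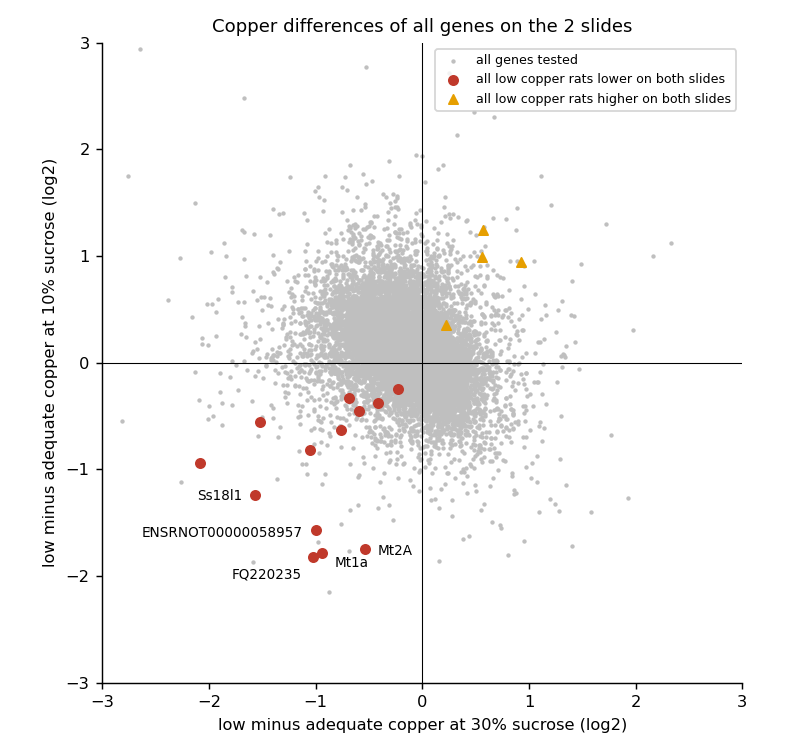
Difference of each gene between low and adequate copper on the 30% slide (x axis, log2) and on the 10% slide (y axis, log2), with genes separated on both slides as red circles (lower) and orange triangles (higher). Mt1a, Mt2A and their related probes stand at the lower left, apart from a cloud that tilts the other way; 2 genes lie outside the range of 3 log2 units.

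Most genes did not share a direction. On the 30% slide 37.9% of genes were higher and 62.1% lower in low copper rats, against 57% higher and 43% lower on the 10% slide. These shares depended on the scaling: 54 and 49.6% were higher on the 30% and the 10% slide with quantile normalization, 49.6 and 52.9% in the authors' table, 51 and 46.8% after smoothing over GC, and 24.6 and 67.7% with normexp. Only 34.7% of genes had the same sign on both slides, 14.8% higher and 19.9% lower in low copper rats, and the correlation of the 2 differences across genes was -0.32 (Spearman -0.40). The slides share no rat; genes are not independent replicates, and the correlation is a description. It hung on single rats: it was -0.02 without rat B1, -0.10 without rat C5 and 0.03 without both, with 46.7, 51.3 and 55.2% of genes of the same sign. The differences also followed the base composition of the probe in opposite ways, with a Spearman correlation with probe GC content of -0.41 on the 30% slide and 0.26 on the 10% slide. GC-rich probes stood above GC-poor ones by a median of 0.44 in rat B1 and 0.29 in rat C5, and by -0.41 to 0.26 in the other rats. After a smoothing of each array over probe GC the correlation between the slides was -0.26. The part of base composition in any single gene was not tested. More genes were separated in opposite directions than in the same one: 96 were below on the 30% slide and above on the 10% slide, and 9 the reverse.

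Among genes above background on all 16 arrays with the same sign on both slides, Abcg2, an efflux transporter of drugs, urate and porphyrins, had the smallest p on the higher side. It stood at -1.89, -1.38, -1.02, -1.50, -1.45 and -1.35 in low copper rats on 30% sucrose, against -2.60 and -2.76 in adequate copper rats, with no overlap. Rat C6 on the 10% slide stood at -1.39 and rat C5 at -2.51, against -2.97 to -1.90 in adequate copper rats, so only C6 lay above them. The differences were 1.25 ± 0.31 and 0.29 ± 0.31 (SE), with a mean of 0.77 ± 0.22 (exact permutation p = 0.0102). Fgf21, a hormone the liver secretes under fasting and dietary stress, had a mean difference of 0.92 ± 0.31 (SE), the largest among the 12 genes on the higher side that this ranking by p took. It stood at -1.27 to 0.78 in low copper rats against -1.65 and -1.75 in adequate copper rats on the 30% slide, without overlap. Rat C5 on the 10% slide stood at -0.57 and C6 at 1.14, against -0.76 to 0.23 in adequate copper rats, which overlap. Without rat C6 the mean difference was 0.49 for Abcg2 and 0.49 for Fgf21.

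Smaller but more even differences were seen for Panx1, a channel that releases ATP, at 0.37 and 0.40 on the 30% and the 10% slide (exact permutation p = 0.00383), for Fancf, a DNA repair gene, at 0.49 and 0.56, and for LOC367975 (now Btg1b) at 0.56 and 0.46. Panx1 on the 10% slide stood at -1.08 in C5 and -0.68 in C6, against -1.47 to -1.06 in adequate copper rats, so C6 lay above all 6 of them and C5 above 5. Eif2ak2, the kinase that senses double-stranded RNA, differed by 0.46 and 0.35, with its low copper rats at -1.63 to -1.07 against -1.81 and -1.78 in adequate copper rats on the 30% slide, and a mean difference of 0.23 without rat C6. Herc6, an interferon-induced gene, differed by 0.04 and 1.05 and Stac3 by 1.10 and 0.19, so each rests on 1 slide. None of these passed adjustment, with an adjusted p of 0.9998 for Panx1 and for Eif2ak2 (limma).

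On the lower side the metallothionein probes took 4 of the 12 places. Zdhhc5, an enzyme that attaches palmitate to proteins, differed by -0.54 ± 0.16 and -0.43 ± 0.16 (SE). It stood at -3.39 to -3.11 in low copper rats against -2.68 and -2.67 in adequate copper rats on the 30% slide, without overlap. With 10% sucrose it stood at -3.49 and -3.70 in low copper rats against -3.58 to -2.83 in adequate copper rats, with 1 adequate copper rat inside the low copper range, and the mean difference was -0.27 with normexp background correction. Hrc, a calcium-binding protein, differed by -0.86 and -0.37, and Inpp5k, a phosphoinositide phosphatase, by -0.74 and -0.28. Zfp444, Man2a2 and LOC363846 differed by -0.70, -0.79 and -1.19 on the 30% slide and by -0.17, -0.12 and -0.21 on the 10% slide, where their groups overlapped; the LOC363846 difference leans on rat B1, at -1.50 against -2.79 in B2. The Man2a2 difference leans on rat B2, at -3.08 against -3.80 in B1, and its mean was -0.27 without B2, against -0.46. RGD1310257 and TC593056 were separated on both slides, with mean differences of -0.51 ± 0.14 and -0.40 ± 0.10 (SE); with normexp background correction they were -0.19 and -0.25.

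**Figure D3:**
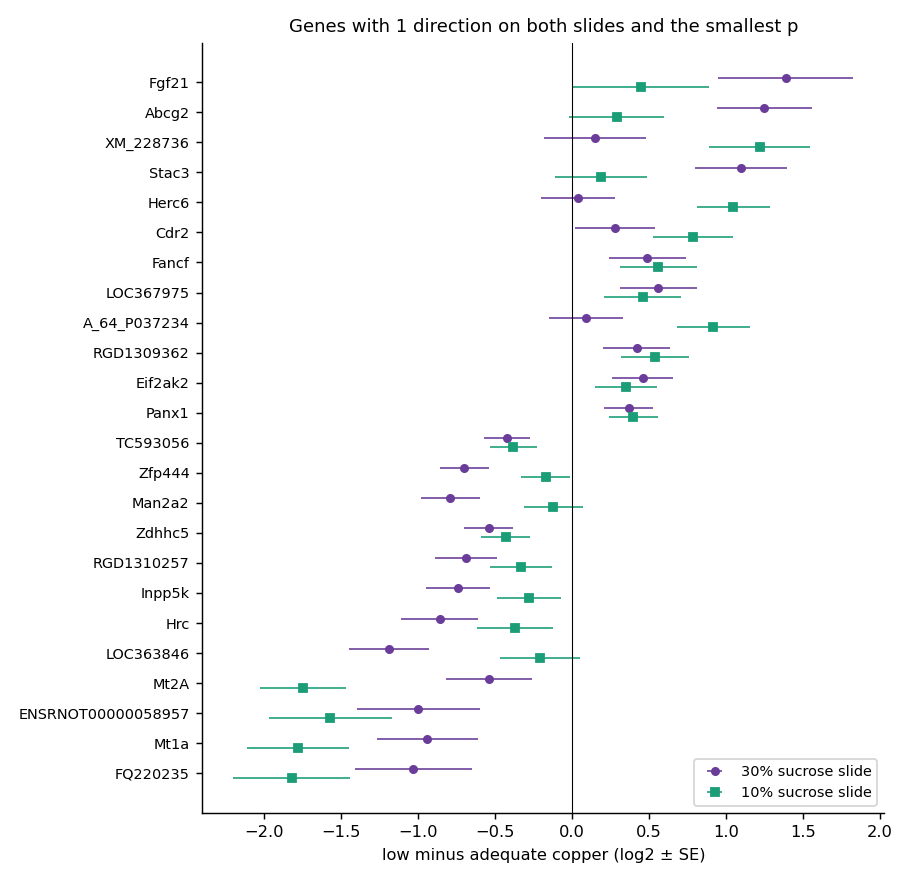
Differences between low and adequate copper (x axis, log2, with the SE as a whisker) on the 30% slide (purple circles) and the 10% slide (green squares) for the 12 genes each way with the smallest p among those of 1 direction on both slides and above background on all 16 arrays. The 4 metallothionein-related names have the largest differences on the 10% slide; for Herc6, Stac3 and LOC363846 1 slide carries most of the difference.

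Several further genes were close to background, of which Ss18l1, Vdr and Olr210 were separated on both slides. Ss18l1, a chromatin subunit of neurons, had the smallest p of all genes, with a fitted mean difference of -1.41 ± 0.23 (SE) and adjusted p = 0.221 (limma), but was well above background on only 6 of 16 arrays. In low copper rats it was not well above background on either slide. Set against the lowest signal well above background where that was higher, their level was 2.61-fold lower on the 30% slide. It was 1.53-fold lower on the 10% slide. With normexp background correction the fitted difference was -0.30. Vdr, the vitamin D receptor, was measured on 14 of 16 arrays and stood at -5.45 to -4.84 in low copper rats against -4.73 and -4.20 in adequate copper rats on the 30% slide. Vdr on the 10% slide stood at -6.27 and -5.89 in low copper rats against -5.84 to -5.09 in adequate copper rats. The Vdr difference was -0.69 ± 0.16 (SE), and -0.20 with normexp background correction. By the same reckoning as for Ss18l1, Nova2 was 2.35-fold lower on the 30% slide and 1.30-fold lower on the 10% slide. Nova2 is an RNA-binding protein of neurons and was measured on 2 of 16 arrays. Plk4, a centriole kinase measured on 4 of 16 arrays, was 1.77-fold and 1.39-fold higher. In both genes rat C5 lay inside the adequate copper range of its slide, at -5.81 against -5.96 to -5.22 for Nova2 and at -6.73 against -7.12 to -6.02 for Plk4. Olr210 (now Or2ag2b), an olfactory receptor, was 1.22-fold and 1.25-fold higher by that reckoning, and was measured on 3 of 16 arrays. The brighter means of Ss18l1, Nova2, Plk4 and Olr210 take in arrays not well above background, so these folds are not firm minima. Over the settings run the fitted mean difference was -0.95 to -0.22 for Nova2. It was 0.09 to 1.6 for Plk4 and 0.07 to 1.25 for Olr210.

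The genes of copper handling did not share the metallothionein difference. Apart from Mt1a and Mt2A, 20 metal, iron and lipid genes had been chosen for a look one by one, and 0 of them had an unadjusted p below 0.05, against 2.63% of all genes; their mean differences ran from -0.36 to 0.30. Slc31a1, the copper importer, stood at -2.36 to -1.78 in low copper rats against -1.99 and -2.15 in adequate copper rats on the 30% slide, and at -1.90 and -1.83 in low against -2.40 to -1.70 in adequate copper rats on the 10% slide. The groups overlapped on both slides, and the difference was 0.11 ± 0.14 (SE). Atp7b, the hepatic copper exporter, differed by -0.05 and 0.06, and Atp7a, the exporter of other tissues, by 0.32 and 0.23. The chaperone of superoxide dismutase Ccs, a protein known to gain in amount under copper deficiency, differed in RNA by -0.03 and -0.15, and Atox1, which feeds Atp7a and Atp7b, by -0.11 and 0.01. Slc30a1, the zinc exporter that is a further target of Mtf1, differed by 0.12 and -0.18, and Mtf1 itself by -0.36 and -0.16. Of the 21 measured genes of copper transport, 7 were lower and 2 higher on both slides (all genes: 19.9 and 14.8%), with a median of -0.08 against -0.02 over all genes. Glrx, a glutaredoxin, had an unadjusted p of 0.043, the only one of the 21 below 0.05; it differed by -0.08 and -0.40. Without B1 and C5 12 were lower and 4 higher on both slides (all genes in that setting: 34.8 and 20.4%).

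Copper-dependent enzymes differed little in the same direction. Cp stood at 6.66 to 7.28 in low copper rats against 7.18 and 6.99 in adequate copper rats on the 30% slide and differed by -0.10 there and by 0.16 on the 10% slide. Sod1 differed by -0.24 and 0.04, Sod3, the secreted superoxide dismutase, by -0.24 and -0.34, and Pam, which amidates peptides, by -0.20 and -0.19. Of the lysyl oxidases, which crosslink collagen, Lox differed by 0.95 and -1.67 and Loxl4 by 0.16 and 0.54. Of 15 measured genes 1 was higher and 3 were lower on both slides (all genes: 14.8 and 19.9%). Of 19 cytochrome oxidase subunits and assembly factors 7 were lower and 0 higher on both slides (all genes: 19.9 and 14.8%), with a median of -0.05. Their differences were small: Cox17, the copper donor of the enzyme, differed by -0.10 and -0.07, and Cox7a2 by -0.08 and -0.13. Without rat B1 the median was 0.00, with 6 lower and 3 higher (all genes in that setting: 26.8 and 19.9%).

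Iron and heme genes were listed because ceruloplasmin oxidises iron. Of 31 measured genes 10 were lower and 0 higher on both slides (all genes: 19.9 and 14.8%), with a median of -0.07. None, 0 of 31, had an unadjusted p below 0.05 (limma; all genes: 2.63%). Fth1, a ferritin subunit, differed by -0.27 and -0.16, Slc40a1, the iron exporter, by -0.05 and -0.28, and Tfrc, the transferrin receptor, by -0.15 and -0.15. Hamp, the hormone hepcidin, differed by -0.69 and -0.03, with 5.35 to 7.30 in low copper rats against 6.92 and 7.51 in adequate copper rats on the 30% slide. Without B1 15 were lower and 6 higher on both slides (all genes in that setting: 26.8 and 19.9%). Among antioxidant genes and Nrf2 targets, 8 of 35 were lower and 6 higher on both slides (all genes: 19.9 and 14.8%). Hmox1, which breaks down heme, differed by 0.05 and -0.03, and Srxn1, which restores peroxiredoxins, by 0.43 and 0.32. Srxn1 stood at 1.46 in C6 and 0.59 in C5, and its mean difference was 0.16 without C6, against 0.38.

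Of 36 interferon response genes measured, 15 were higher and 0 lower in low copper rats on both slides (all genes: 14.8 and 19.9%), with a median difference of 0.18 against -0.02 over all genes. By slide, 19 were higher on the 30% slide and 32 on the 10% slide (all genes: 37.9 and 57%). The values were wide on the 10% slide: the mean level over the list was 0.28 and 0.02 in rats C5 and C6 against -0.99, -0.34, -0.06, 0.09, 0.12 and -0.39 in rats D1 to D6, and the 2 groups overlapped. On the 30% slide it was -0.05, -0.11, 0.27, 0.22, -0.08 and 0.04 in A1 to A6 against 0.09 and -0.03 in B1 and B2. The members with the smallest p among those of 1 sign on both slides were Herc6 and Eif2ak2, both given above, and Ifi44 at 0.24 and 0.27. None of the 36 passed adjustment, and 2 had an unadjusted p below 0.05 (all genes: 2.63%). Without rat C5 the median was 0.11. Without B1 and C5 23 were higher and 3 lower on both slides (all genes in that setting: 20.4 and 34.8%).

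Of 18 Kupffer cell and macrophage markers measured, 11 were lower and 1 higher on both slides (all genes: 19.9 and 14.8%), with a median of -0.19. Without B1 and C5 13 were lower and 1 higher (all genes in that setting: 34.8 and 20.4%), and the median was -0.39 without rat C5 alone. On the 10% slide the mean level over the list was -0.42 in C5 and -1.09 in C6. It was -0.71, -0.58, -0.53, -0.34, -0.11 and -0.93 in D1 to D6. C6 thus lay below all 6 adequate copper rats and C5 among them, so the lower level on this slide leaned on C6. Cd163, the macrophage receptor of haptoglobin and hemoglobin, differed by -0.26 and -0.40, Cd5l, a protein secreted by macrophages, by -0.45 and -0.55, and Spi1, the myeloid transcription factor, by -1.16 and -0.09. The Cd163 difference on the 10% slide leans on rat C6, at -1.28 against -0.30 in C5. Without rat C6 the mean difference was -0.09 for Cd163, against -0.33, and -0.36 for Spi1, against -0.62. Cd5l stood at -1.65 to -0.41 in low copper rats against -0.58 and -0.39 in adequate copper rats on the 30% slide, so the groups overlapped. The summed level of the list was 39.8 to 66.2 in low copper rats against 54.2 to 58.2 in adequate copper rats on the 30% slide, and 38.1 to 54.4 in low against 37.2 to 64.3 in adequate copper rats on the 10% slide. The groups overlapped on both slides, 17 of the 18 markers were above background on all 16 arrays, and 1 of 18 had an unadjusted p below 0.05 (all genes: 2.63%).

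Of 31 matrix genes measured, 21 were higher on the 30% slide and 24 lower on the 10% slide (all genes: 37.9 and 43%). On both slides 2 were higher and 5 lower (all genes: 14.8 and 19.9%). Thbs2, a matrix glycoprotein, differed by -0.37 and -0.62, and the basement membrane collagen Col4a2 by -0.37 and -0.13. Among bile duct markers, Spp1 (osteopontin), a protein of bile duct cells and injured liver, differed by 1.31 and 0.58. It stood at -5.21 to -3.03 in low copper rats against -5.59 and -5.64 in adequate copper rats on the 30% slide, where no adequate copper array was well above background and the low copper level was at least 2.48-fold higher. On the 10% slide it stood at -2.87 in C5 and -4.54 in C6 against -4.75 to -3.64 in adequate copper rats. Prom1, a surface marker of bile duct and progenitor cells, differed by 0.58 and 0.44, and Cldn7, a tight junction protein of duct epithelium, by 1.49 and 0.93. In these 3 genes C5 was the highest rat of its slide and C6 lay among the adequate copper rats. Of 13 bile duct markers measured 7 were higher and 6 lower on the 30% slide (all genes: 37.9 and 62.1%). On both slides 6 were higher and 1 lower (all genes: 14.8 and 19.9%), and the median was 0.06. Without rat C5 2 were higher and 3 lower on both slides (all genes in that setting: 19.4 and 31.9%). The summed level of the list was 52.2 to 91 in low copper rats against 50.1 to 68.5 in adequate copper rats on the 30% slide, and 60.3 to 79.1 in low against 49.5 to 67 in adequate copper rats on the 10% slide.

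**Figure D4:**
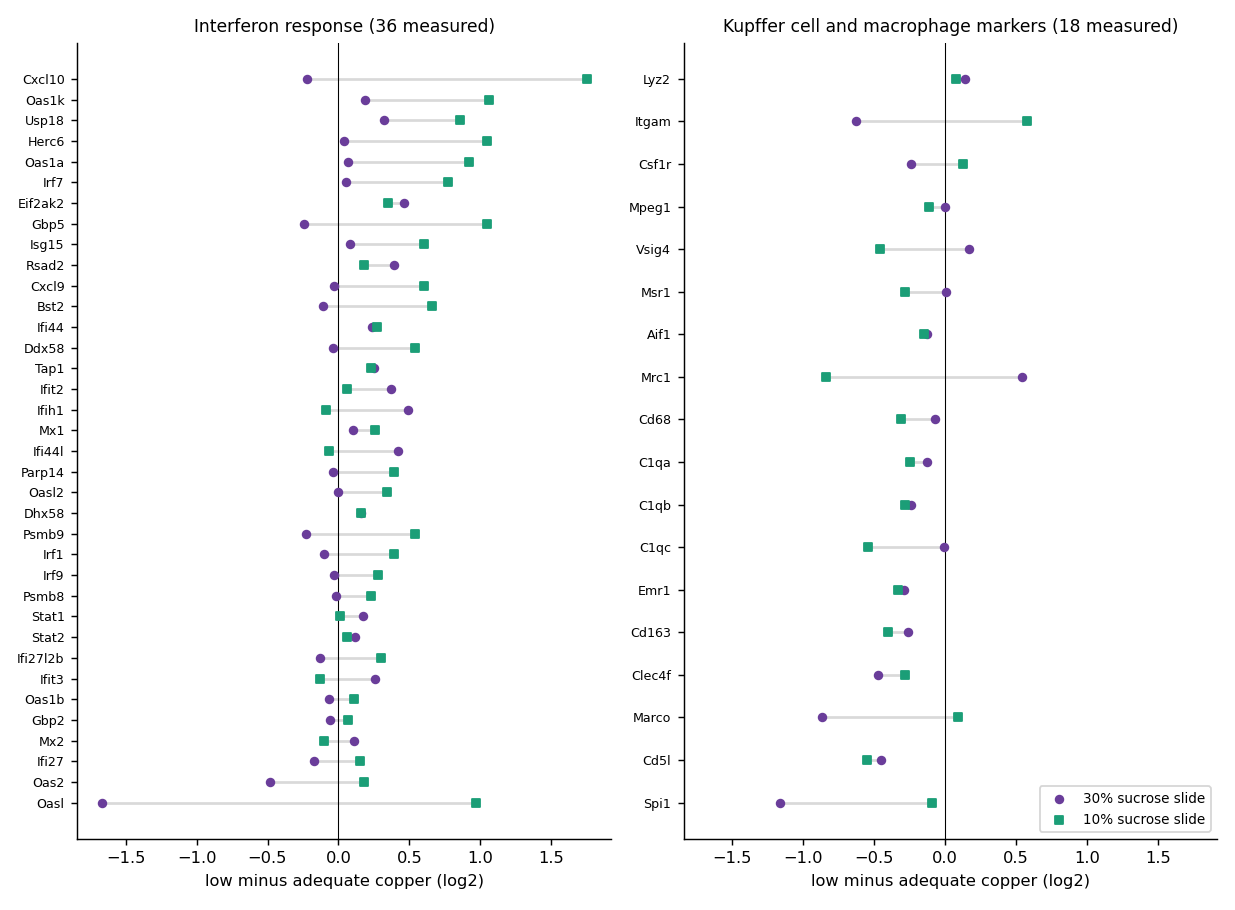
Differences between low and adequate copper (x axis, log2) of each measured interferon response gene (left) and each measured Kupffer cell or macrophage marker (right) on the 30% slide (purple circles) and the 10% slide (green squares). Of 36 interferon genes 15 lie right of 0 on both slides and 0 left of it; of 18 macrophage markers 11 lie left of 0 on both slides and 1 right of it.

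Other lists went in opposite directions on the 2 slides. Over all genes 37.9% were higher on the 30% slide and 57% on the 10% slide, with medians of -0.09 and 0.04. Without rat C5 49.5% of all genes were higher on the 10% slide and 31.9% were lower on both slides. Without rat C6 62.3% of all genes were higher on the 10% slide, with a median of 0.12. Of 27 genes of cholesterol synthesis, 2 were higher on the 30% slide and 22 on the 10% slide, with medians of -0.30 and 0.15. Sqle and Cyp51, both sterol-making enzymes, differed by -0.70 and -0.70 on the 30% slide and by 0.44 and 0.38 on the 10% slide. Without rat C5 only 5 of the 27 were higher on the 10% slide and 20 were lower on both slides, so the opposite sign of this list rested on that rat. Acute phase genes, plasma proteins whose synthesis changes in inflammation, were higher in 3 of 33 on the 30% slide and in 27 of 33 on the 10% slide, with medians of -0.35 and 0.12. Without rat C5 18 of the 33 were higher on the 10% slide, with a median of 0.03, and 13 were lower on both slides; without rat B1 the median on the 30% slide was -0.17. Neutrophil markers were higher in 0 of 10 and in 9 of 10, with medians of -0.44 and 0.40. Without rat C5 7 of 10 were higher on the 10% slide, with a median of 0.14, and without rat C6 the median was 0.68. S100a8 and S100a9, the calprotectin subunits, differed by -0.65 and -0.88 on the 30% slide and by 0.98 and 0.86 on the 10% slide. The summed neutrophil level was 1.09 to 1.97 in low copper rats against 1.75 to 2.13 in adequate copper rats on the 30% slide, and 1.07 to 2.03 in low against 0.944 to 1.38 in adequate copper rats on the 10% slide, with 6 of the 10 markers above background on all arrays.

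Genes of fatty acid oxidation and targets of PPAR alpha went the other way round, higher in 28 of 41 on the 30% slide and in 5 of 41 on the 10% slide, with medians of 0.08 and -0.19. The shares over all genes were 37.9 and 57%, with medians of -0.09 and 0.04. Without rat C5 22 of the 41 were higher on the 10% slide (all genes in that setting: 49.5%). Cpt1a, which gates mitochondrial oxidation, differed by 0.12 and -0.23. Endothelial markers were higher in 9 of 13 on the 30% slide and in 3 of 13 on the 10% slide, with medians of 0.33 and -0.52. The median on the 30% slide was 0.09 without rat B1, and that on the 10% slide was -0.95 without rat C5 and 0.10 without rat C6, so its sign rested on C6. Over all genes the median on the 10% slide without rat C6 was 0.12. Their summed level was 16.6 to 23.9 in low copper rats against 15.6 to 16.8 in adequate copper rats on the 30% slide, and 10.9 to 19.7 in low against 17.4 to 25.4 in adequate copper rats on the 10% slide. Red blood cell markers were higher in 2 of 10 and in 8 of 10, with medians of -0.20 and 0.80. The alpha globin Hba-a2 differed by -0.54 and 1.46. Without rat B1 8 of 10 red blood cell markers were higher on the 30% slide too (all genes in that setting: 36%). Their summed level was 147 to 715 in low copper rats against 304 to 521 in adequate copper rats on the 30% slide, and 306 to 394 in low against 51.1 to 286 in adequate copper rats on the 10% slide. Of the 33 lists 16 had medians of the same sign on both slides.

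**Figure D5:**
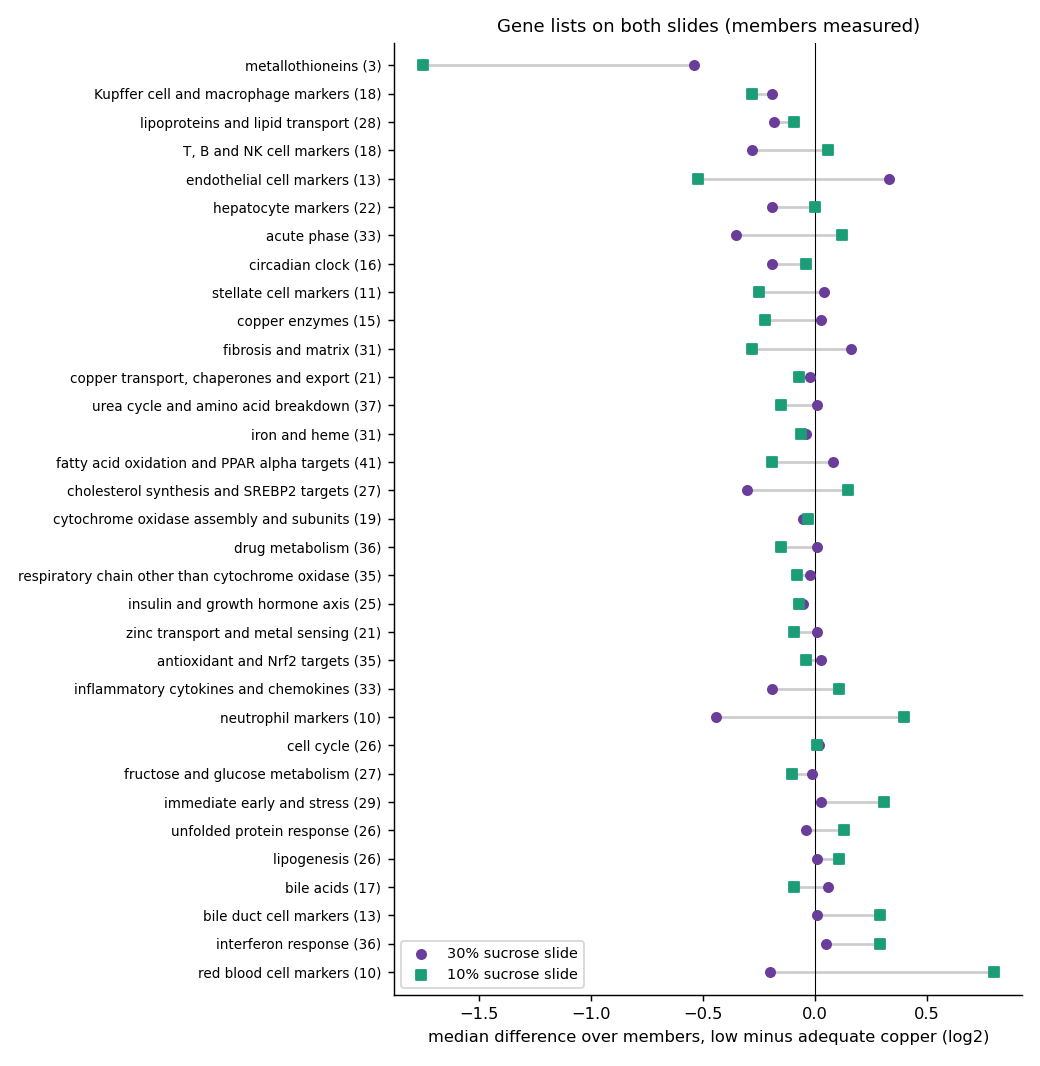
Median difference over the measured members of each of the 33 gene lists (x axis, log2, low minus adequate copper) on the 30% slide (purple circles) and the 10% slide (green squares), ordered by the mean of both slides, with the number of members in brackets. Metallothioneins stand lowest on both slides; neutrophil, red blood cell and endothelial markers have medians of opposite sign on the 2 slides.

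Within a single slide, the 6 genes that passed on 30% sucrose were all lower in low copper rats, and 0 of the 6 had the same sign on the 10% slide. They include Klf1, an erythroid transcription factor (-1.48 on the 30% slide and 0.62 on the 10% slide), and the probe A_64_P051139 (-1.18 and 0.05), which was the only 1 of the 6 above background on all 16 arrays. Among well detected genes on the 30% slide, Sp9, Vax2 and Ankrd29 followed with -1.45, -1.28 and -1.22, against 0.37, 0.22 and 0.64 on the 10% slide. Amacr, a peroxisomal racemase of bile acid synthesis, differed by 0.83 and -0.43. On the 10% slide Mt2A, Mt1a and FQ220235 were among the 5 well detected genes with the smallest p on the lower side, with Tpbg (-0.80), and Herc6 was among the 5 on the higher side. The difference between the 2 slides passed adjustment in 0 genes, and 2309 (12.4%) had an unadjusted p below 0.05 (limma), 347 of them with the higher value on the 30% slide (1.86%) and 1962 with the lower one (10.5%). That split was 902 and 1142 with quantile normalization, 733 and 1239 in the authors' table, 744 and 1018 after smoothing over GC, and 204 and 3751 with normexp. Ankrd29 was among the 5 with the smallest p, with a difference of -1.86.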

How the data were processed

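Liver RNA of single rats was measured on 1-colour Agilent arrays. Per the file headers, spots were read with Agilent Feature Extraction 10.7.3.1 (protocol GE1_107_Sep09, probe positions on rn4), and the deposited processed signal is an intensity that the software had cleared of background and of spatial trend on each array; the mean, local background and background-subtracted intensity in the deposited files are unscaled. The deposited series table is a score from the authors with scale and normalization not stated; it was multiplied by 662 and raised by 80.4 to follow the background-subtracted signal (lowest Spearman correlation 0.994 over arrays), an assumption, floored at 5 and used as an alternative. The deposited spot marks (unit other) served as marks.

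Spots marked as outliers (0.652%) were left out, log2 processed signals were set against the 75th percentile of the array and averaged per probe, probes above background on at least 6 of 24 arrays were kept, and the brightest stood for its gene name. The fit used limma 3.58.1 in R 4.3.3 (package data.table, version 1.17.8), with a mean for each of the 4 groups, and Benjamini-Hochberg adjustment over 18641 genes at 0.05. Residual degrees of freedom were 12. The precision is limited by the number of arrays. "At least" folds, and those of Ss18l1, Nova2, Plk4 and Olr210, set the brighter mean against the dimmer mean. Where the lowest signal of probes well above background was higher than the dimmer level, it was used instead. The brighter mean took in all arrays of its group, also those not well above background, so such a fold is not a firm minimum. Current symbols were matched through unversioned RefSeq transcript accessions for 18004 probes. Drawings used matplotlib 3.10.9.

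Genes were named by a rule: the 12 with the smallest p each way among genes of 1 direction on both slides above background on all 16 arrays, 5 each way among dimmer ones, 5 each way per slide and 5 in the difference of the slides, up to 3 per list and 22 fixed genes, 147 in all, with separated genes added. The text describes a selection, and further list members were named after their values were seen. The members, the 33 gene lists and the fixed genes were chosen with earlier results of these data known. Alternatives were other scalings, filters, slide, replicate and position terms, weights, and leaving out each rat; rows on the slide, a GC smoothing and leaving out B1 and C5 together were added after seeing the data. In a test on simulated data 200 of 18641 genes carried a known change, equal on both slides, with noise independent between genes. The mean of both slides found 98.5% of changes of 2 log2 units, with 7 false calls. Some single genes are not reported here.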

Additional observations from a re-analysis of the deposited data

Results flagged for a closer look

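In groups of 6 rats, 13 of 308 combinations of gene and group (4.22%) held 1 rat far from the others by Dixon's ratio, and chance gives about 1 in 20. Rat D6 was the distant one in 4 of them and rat A4 in 2. Among the metallothionein-related probes, rat A4 stood lowest, with FQ220235 at 1.72 and ENSRNOT00000058957 at 1.90. Rat D6 stood apart with Cd163 at -1, Il1b at -1.76, Hrc at -4.23 and Steap4 at 1.33. In low copper rats on 30% sucrose, Steap4 stood at 0.61 in A1, Gsta4 at 4.73 in A2, Serpina3m at 4.94 in A3 and Glrx at 1.75 in A5. In adequate copper rats on 10% sucrose, Gsta4 stood at 5.27 in D2, the probe A_64_P000407 at -2.25 in D3 and Scd1 at 8.51 in D4. No named gene differed between the slides past the adjusted threshold.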

How the results depend on the processing

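Mt1a and Mt2A were separated on both slides under every setting for which separation was counted. It was not counted for fits with other terms, weights or a trend. Over all settings run the mean differences were -1.43 to -1.15 for Mt1a and -1.28 to -0.98 for Mt2A.
Calls in the mean of both slides (0) numbered 48 without a filter on dim probes, 2 with a replicate block, 0 to 3 leaving out single rats and 1 without B1 and C5. On the 30% slide (6) they numbered 0 with normexp, 1 with quantile, 2 in the authors' table, 1053 without a filter, 0 over genes above background on all 16 arrays, 1 over a stricter filter, 20 with all 24 arrays, 0 with a replicate block, 0 with a trend, 1 with weights, 1 with rows on the slide, 0 after GC smoothing and 1 to 13 leaving out single rats. On the 10% slide (0) they numbered 2 without a filter, 0 to 16 leaving out single rats and 1 without B1 and C5. For the difference of the slides (0) they numbered 227 without a filter, 1 over the stricter filter, 10 with all 24 arrays, 0 to 15 leaving out single rats and 1 without B1 and C5.
Separated genes (17) numbered 7 with normexp, 38 with quantile, 27 in the authors' table, 26 without a filter, 8 over genes above background on all 16 arrays, 11 over the stricter filter, 19 to 327 leaving out single rats and 821 without B1 and C5. Of the 17, 5 were still separated with normexp, 8 with quantile, 7 in the authors' table and 10 after GC smoothing. Named genes of 1 direction on both slides (34) numbered 14 with normexp and 27 to 34 leaving out single rats. Lists of 1 direction (16) numbered 9 with a replicate block, 9 after GC smoothing, 25 without B1 and C5 and 12 to 20 leaving out single rats.
Among differences larger than their SE, with position on the slide as a block the sign turned for Mtf1 (0.03), Il10 (-0.14), Serpina3m (0.02), Apcs (0.09), Uroc1 (0.07), Sesn1 (0.20), Top2a (-0.11), Foxm1 (-0.02), Flt1 (-0.07), ENSRNOT00000060360 (-0.30) and RGD1562036 (-0.34). It also turned for Apoa2 in the authors' table (0.04) and without B1 and C5 (0.03), Il10 with normexp (-0.01), Mat1a with quantile (0.00) and Atp7a without B1 and C5 (-0.08). Leaving out single rats gave -0.38 to 0.04 for Apoa2, -0.04 to 1.41 for Atf3 and -0.12 to 0.88 for Top2a. Differences smaller than their SE were given no direction; of these, Hpd (0.32, against -0.16), Crp (0.25, against -0.08), Slc31a1 (-0.26, against 0.11) and Mcm4 (-0.17, against 0.13) also changed sign with the position block, and Fasn ran from -0.43 to 1.04 leaving out single rats. The cause was not tested. By that rule 5126 of 5195 recomputed gene values kept direction and side of the threshold. Size does not enter that count, and differences smaller than their SE could not count as turned.
For rats of the same replicate number, deviations from the group mean correlated by 0.44 for A1 and B1 and -0.06 for A2 and B2. They correlated by 0.45 for C5 and D5 and -0.20 for C6 and D6. In a group of 2 rats the deviations mirror each other, so these values cannot tell whether replicate numbers pair the rats. Normexp moved the median of all genes on the 30% slide to -0.18, against -0.09.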

Other observations

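One probe with no gene name, A_64_P081050, stood at 10.1 in rat C6 against -1.24 to -0.56 in the other 15 rats, all above background. It was singled out after its values were seen.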
